A study of Mus musculus with 4 samples.

Results

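The clustered histone genes are the mouse genes named Hist1, Hist2, Hist3 and Hist4 followed by the histone type, such as Hist1h1c. Membership was set by that name, and the group was chosen with earlier results of these data known. The arrays carried 47 such probes for 36 genes among 41174 non-control probes for 27745 gene names. Of these, 30 probes for 25 genes lay in the Hist1 cluster on chromosome 13, 9 probes for 7 genes in Hist2 on chromosome 3, 6 probes for 3 genes in Hist3 on chromosome 11 and 2 probes for 1 gene in Hist4 on chromosome 6. By type there were 8 probes for linker histone H1, 17 for H2A, 11 for H2B, 3 for H3 and 8 for H4.

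RNA came from 3T3-L1 cells, a mouse preadipocyte line, on day 2 after hormonal induction of adipocyte differentiation, with 1 Agilent single-color array per condition. The control cells received the vehicle, DMSO, and the other cells received bilberry extracts at 100 μg/mL, delphinidin at 100 nM or cyanidin at 100 nM. All 4 conditions shared 0.1% DMSO, insulin at 10 μg/mL, dexamethasone at 1 μM and IBMX, labeled as 0.5 μM. There were no replicates, so no ratio below has a replicate error, an interval or a p-value. All 11 adipocyte and preadipocyte markers examined, among them Pparg, Fabp4 and Dlk1, were well above background on all 4 arrays. Of 10 markers of other cells, Cd68, Krt8 and Hbb-b1 were so, at log2 levels between -5.29 and -3.49, and Ptprc, Emr1, Pecam1, Cdh5, Krt18, Epcam and Alb were on no array. Of the 11, 8 had a bilberry log2 ratio above 0 on the 75th percentile scale described below, with a median of 0.30, and Adipoq (-1.07) was the 1 past 2-fold. That median was -1.24 with the arrays scaled to added spike-in RNAs (the spike-in scale), -0.33 and 0.25 under normexp, a model-based background correction fitted over all spots, and its refit without marked spots, and -0.03 under quantile normalization. Krt8 had ratios of 1.17, 1.80 and 1.06 in the 3 treatments, the first of which was -0.38 on the spike-in scale. The part of these markers in the histone values was not tested.

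H2A, H2B, H3 and H4 form the protein core around which DNA is wound, and H1 binds the linker between cores. Most of the clustered genes are transcribed during S phase, when new DNA needs new histones. Their mRNAs usually end in a stem-loop, bound by stem-loop binding protein, in place of a poly(A) tail. 3T3-L1 cells pass through rounds of division after induction, before they fill with lipid. The labeling kit primes from poly(A), so the signal comes from transcripts that such a primer could reach, and which share of each mRNA that was is not known here. In bulk RNA, fewer cells in S phase and less histone mRNA per cell cannot be told apart.

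Histone mRNA was seen on every array. Probes well above background, by the scanner software's own call, numbered 41 of 47 with DMSO, 39 with bilberry extracts, 41 with delphinidin and 42 with cyanidin. That was 83.0% to 89.4% of the histone probes, against 56.2% to 61.5% of all probes. On all 4 arrays 38 histone probes passed that call, and 5 passed it on some arrays. The 4 on no array were Hist1h2ac, Hist3h2ba, Hist1h3a and 1 of the 2 Hist4h4 probes. Among the 38, a Hist1h2af probe had a marked local background on the bilberry and delphinidin arrays and was left out there, so 37 probes gave a ratio in every treatment. No histone spot was saturated. The files list more than 1 RefSeq transcript for 14 of the 47 probes, and near-identical copies of a type can share a probe's signal, so the copy behind a value is uncertain.

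Below, a level is the log2 of a probe's signal over the 75th percentile of its array, so that 0 marks that percentile, and a difference is the log2 ratio to the DMSO array. With bilberry extracts 14 of the 37 probes were more than 2-fold higher (37.8%) and 0 were more than 2-fold lower, against 4.17% higher and 6.94% lower among 21441 probes of all genes. When the arrays were scaled to added spike-in RNAs instead, every bilberry log2 ratio was lower by 1.54, and 2 of the 37 were more than 2-fold higher and 16 lower, against 0.103% higher and 79.0% lower among all probes. With delphinidin 3 of 37 were higher (8.11%) and 1 was lower, against 1.04% and 1.35% of all probes. With cyanidin 0 were higher and 0 were lower, against 0.49% and 1.81%. The median log2 ratio of the histone probes was 0.90 with bilberry extracts, 0.07 with delphinidin and 0.23 with cyanidin, where the medians over all probes were 0.14, -0.03 and -0.01. The bilberry median was -0.64 on the spike-in scale, on which the median of all probes was -1.40. Less the median of all probes, the histone median was 0.76 after either of these scalings, which move every probe alike, 0.40 under normexp background correction, 0.64 under its refit and 0.66 under quantile normalization. The normexp fit over all spots put the bilberry background at -344.9, against -6.15 to -3.88 on the other arrays, and the refit without marked spots put it at -5.65. Under the fit over all spots 31.5% of all probes were more than 2-fold higher with bilberry extracts, and 11 of the 37 histone probes were, while under the refit 1.98% of all probes and 13 of the 37 were.

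**Figure D1:**
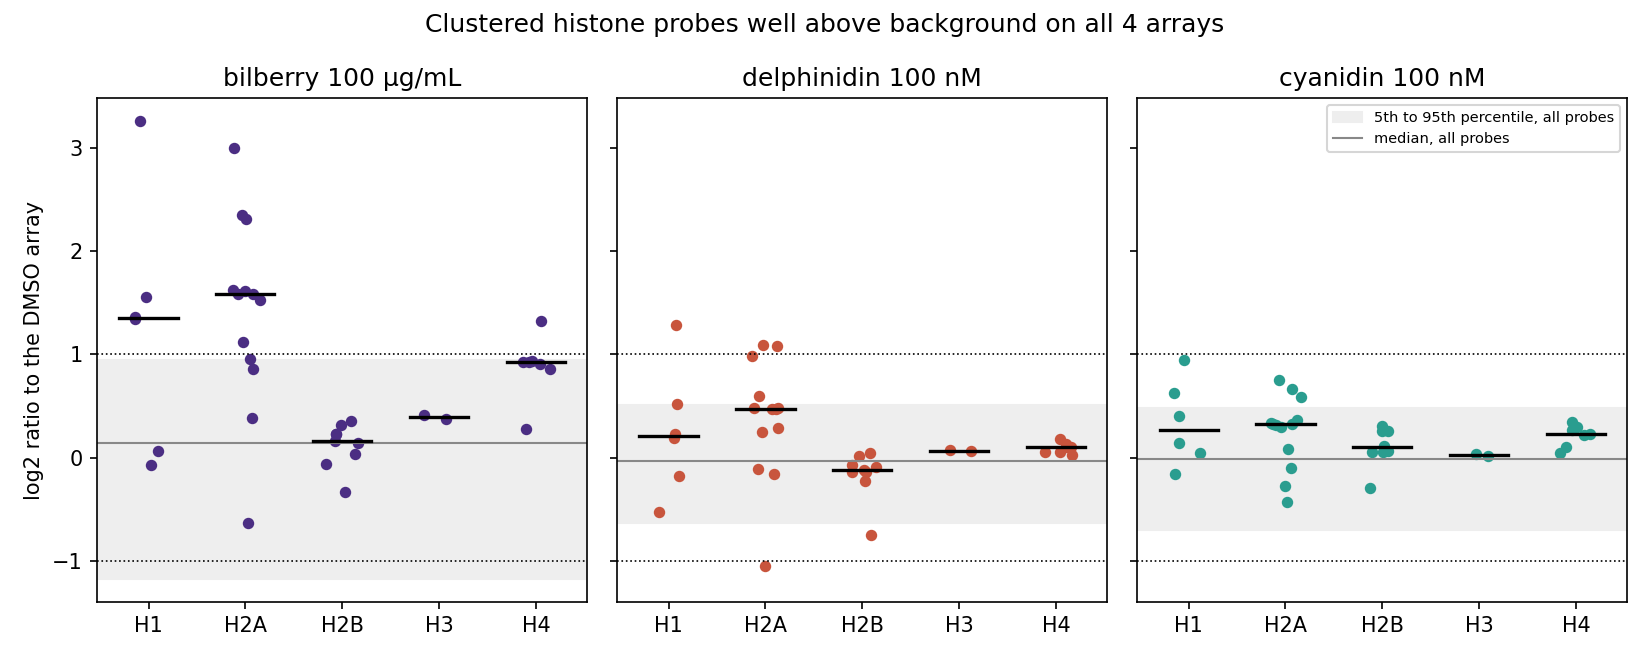
Log2 ratio to the DMSO array for the 37 histone probes by type (points), with the median of each type (black bars), the median and the 5th to 95th percentile of all probes (grey) and the 2-fold lines (dotted), after 75th percentile scaling. With bilberry extracts H1 and H2A spread furthest upward and H2B lies about the median of all probes, and on the spike-in scale each bilberry point is lower by 1.54 and the medians of H1, H2B, H3 and H4 fall below 0.

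The type medians were furthest apart with bilberry extracts. The median log2 ratio was 1.58 for 13 H2A probes, 1.36 for 6 H1 probes, 0.92 for 7 H4 probes, 0.40 for 2 H3 probes and 0.17 for 9 H2B probes. Probes more than 2-fold higher numbered 9 of 13 for H2A, 4 of 6 for H1, 1 of 7 for H4, 0 of 2 for H3 and 0 of 9 for H2B, against 4.17% of all probes. On the spike-in scale the H2A median was 0.04 and the medians of H1, H4, H3 and H2B were -0.18, -0.62, -1.14 and -1.37. Under the normexp fit over all spots the H2A median was 0.99 and that of H4 0.40, and under its refit the medians of H2A, H4 and H1 were 1.53, 0.86 and 0.96. H2A lay above H2B under each background correction and scaling tried. With delphinidin the medians were 0.47 for H2A, 0.21 for H1, 0.10 for H4, 0.07 for H3 and -0.12 for H2B (0.14 for H2B on the spike-in scale). With cyanidin they were 0.32 for H2A, 0.27 for H1, 0.23 for H4, 0.03 for H3 and 0.10 for H2B.

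Gene size moved with the bilberry ratio as well. Among other probes, those whose RefSeq gene model spans up to 1000 bp (n = 124) had a median log2 ratio of 0.46, with 11.3% more than 2-fold higher. Those over 20000 bp (n = 8774) had a median of 0.06, with 2.77% higher and 7.74% lower. Histone genes are short and mostly without introns, and 28 of the 30 histone probes with a ratio and a model had one of up to 1000 bp, with a median of 504 bp. With delphinidin and cyanidin the short models of other genes had medians of -0.16 and -0.10. The part of gene size in the histone ratios was not tested.

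**Figure D2:**
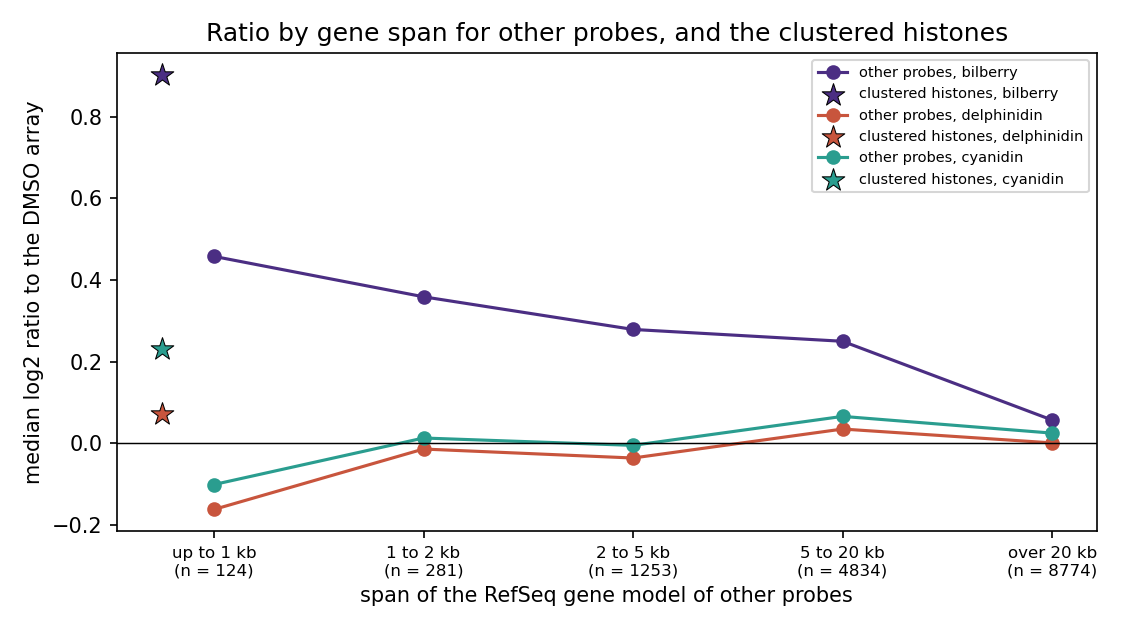
Median log2 ratio to the DMSO array of other probes by the span of their RefSeq gene model (circles, n under each bin), and of the 37 histone probes (stars), for the 3 treatments after 75th percentile scaling. The bilberry medians of other probes run from 0.46 for the shortest to 0.06 for the longest models, and the histone median is 0.90 on this scale and -0.64 on the spike-in scale.

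Among the linker histones, Hist1h1b had the largest ratios. Its level was -0.18 with DMSO, 3.08 with bilberry extracts, 1.1 with delphinidin and 0.76 with cyanidin. These give ratios of 9.59-fold, 2.43-fold and 1.93-fold, and each was the largest of the 37 probes in its treatment. Hist1h1b was also 1 of the 2 histone probes that stayed more than 2-fold higher with bilberry extracts on the spike-in scale.

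Hist1h1c had levels of 3.85, 3.91, 3.32 and 3.69 with DMSO, bilberry extracts, delphinidin and cyanidin. Its log2 ratios were 0.06, -0.53 and -0.16, so that each ratio was below that of Hist1h1b. Hist1h1e had levels of 1.85, 3.40, 2.08 and 1.90 in the same order, with log2 ratios of 1.55, 0.23 and 0.05. It passed 2-fold with bilberry extracts and lay near DMSO with the anthocyanidins. A second Hist1h1e probe, 2320 bp away on mm8 and with no RefSeq transcript listed, was not well above background on the bilberry array and was at least 1.34-fold lower there than with DMSO.

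Hist1h1a was dim, with levels of -4.43, -3.07, -3.91 and -3.81 and log2 ratios of 1.37, 0.52 and 0.63. The 2 probes named Hist1h1d gave different bilberry ratios. A_52_P10683 had levels of -3.04, -1.69, -2.84 and -2.63 and a bilberry log2 ratio of 1.35, and A_51_P501260 had levels of -1.64, -1.72, -1.82 and -1.5 and a ratio of -0.07. They lie 1751 bp apart on mm8, further than the 776 bp that the gene's RefSeq model spans in GRCm38.p6. Hist1h1t, the linker histone of male germ cells, was well above background on the cyanidin array only, so no fold is given. On the spike-in scale the bilberry log2 ratios of Hist1h1a and A_52_P10683 were -0.17 and -0.19.

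The upstream bases of Hist1h1b and Hist1h1c, linker genes with a large and a small bilberry ratio, and of Hist1h2ab, the H2A gene with the largest ratio, are shown from RefSeq (GRCm38.p6), 5′ to 3′ on the strand of the gene, ending at the base before the annotated start. Their current symbols are H1f5 (chr13:21780626-21780875, minus strand), H1f2 (chr13:23738557-23738806, plus strand) and H2ac4 (chr13:23750838-23751087, plus strand). Capitals mark the TATA box (TATAAA), the CCAAT box (CCAAT), the octamer known from H2B promoters (ATTTGCAT) and the AC box known from H1 promoters (AAACACA), or their reverse complements.
Hist1h1b: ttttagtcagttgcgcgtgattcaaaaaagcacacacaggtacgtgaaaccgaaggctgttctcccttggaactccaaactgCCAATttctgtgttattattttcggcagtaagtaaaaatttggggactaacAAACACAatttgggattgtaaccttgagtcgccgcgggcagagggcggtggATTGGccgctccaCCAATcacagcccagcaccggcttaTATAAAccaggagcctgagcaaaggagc
Hist1h1c: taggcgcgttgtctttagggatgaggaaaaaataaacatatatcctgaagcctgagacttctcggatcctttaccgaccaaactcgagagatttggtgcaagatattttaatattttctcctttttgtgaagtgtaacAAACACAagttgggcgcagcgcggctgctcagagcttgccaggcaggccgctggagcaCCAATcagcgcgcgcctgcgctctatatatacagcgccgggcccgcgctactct
Hist1h2ab: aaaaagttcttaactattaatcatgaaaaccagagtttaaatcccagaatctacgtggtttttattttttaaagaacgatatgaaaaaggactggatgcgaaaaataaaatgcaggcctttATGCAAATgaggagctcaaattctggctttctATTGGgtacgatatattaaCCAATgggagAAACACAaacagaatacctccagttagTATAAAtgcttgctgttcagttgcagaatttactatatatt
AAACACA begins 117 bases before the start of Hist1h1b and 112 before that of Hist1h1c, and a CCAAT begins 53 and 54 bases before. The Hist1h1b window also holds TATAAA, 28 bases before the start. The Hist1h1c window does not hold these exact letters, but it holds TATATATA near its end, a similar form that was not searched for. The Hist1h2ab window holds all 4 motifs, the octamer on the opposite strand.

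Windows of 250 bases were found for 27 of 31 histone genes with a current symbol. Searched on both strands, with overlaps between motifs allowed, CCAAT was in 24 of 27 windows, against 33.8% of 32851 RefSeq windows of that length. TATAAA was in 15 of 27, against 12.4%, ATTTGCAT in 9, against 1.6%, and AAACACA in 9, against 6.25%. AAACACA was in 5 of 6 H1 windows, 2 of 10 H2A windows and 2 of 5 H2B windows, while ATTTGCAT was in 0 of 6, 6 of 10 and 3 of 5. H2A and H2B genes that lie head to head can share the same window, and a match in letters is a description only.

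H2A pairs with H2B in the core. The Hist1h2aa probe had levels of 7.14, 8.76, 7.62 and 7.46 with DMSO, bilberry extracts, delphinidin and cyanidin, and the Hist1h2af probe A_52_P165633 had 7.12, 8.75, 7.60 and 7.49. The Hist2h2ac probe A_52_P340480 had 6.87, 8.40, 7.34 and 7.20, and A_52_P257377 had 6.70, 8.28, 7.18 and 7.03. All 4 probes were highest with bilberry extracts and lowest with DMSO on this scale, and their log2 ratios lay between 1.53 and 1.62 with bilberry extracts, between 0.47 and 0.48 with delphinidin and between 0.32 and 0.37 with cyanidin. Hist1h2aa is known as a testis gene, and the other testis members were Hist1h1t, above, and Hist1h2ba, below. The files list 1 transcript for the Hist1h2aa probe, 2 and 3 for A_52_P165633 and A_52_P340480, and none for A_52_P257377. The last lies 25283 bp from A_52_P340480 on mm8, on the opposite strand. Whether other H2A copies gave signal on these probes was not tested. Under the normexp fit over all spots all 4 bilberry ratios were below 1, between 0.91 and 0.99, which they were not under its refit, and on the spike-in scale that of A_52_P340480 was -0.01.

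**Figure D3:**
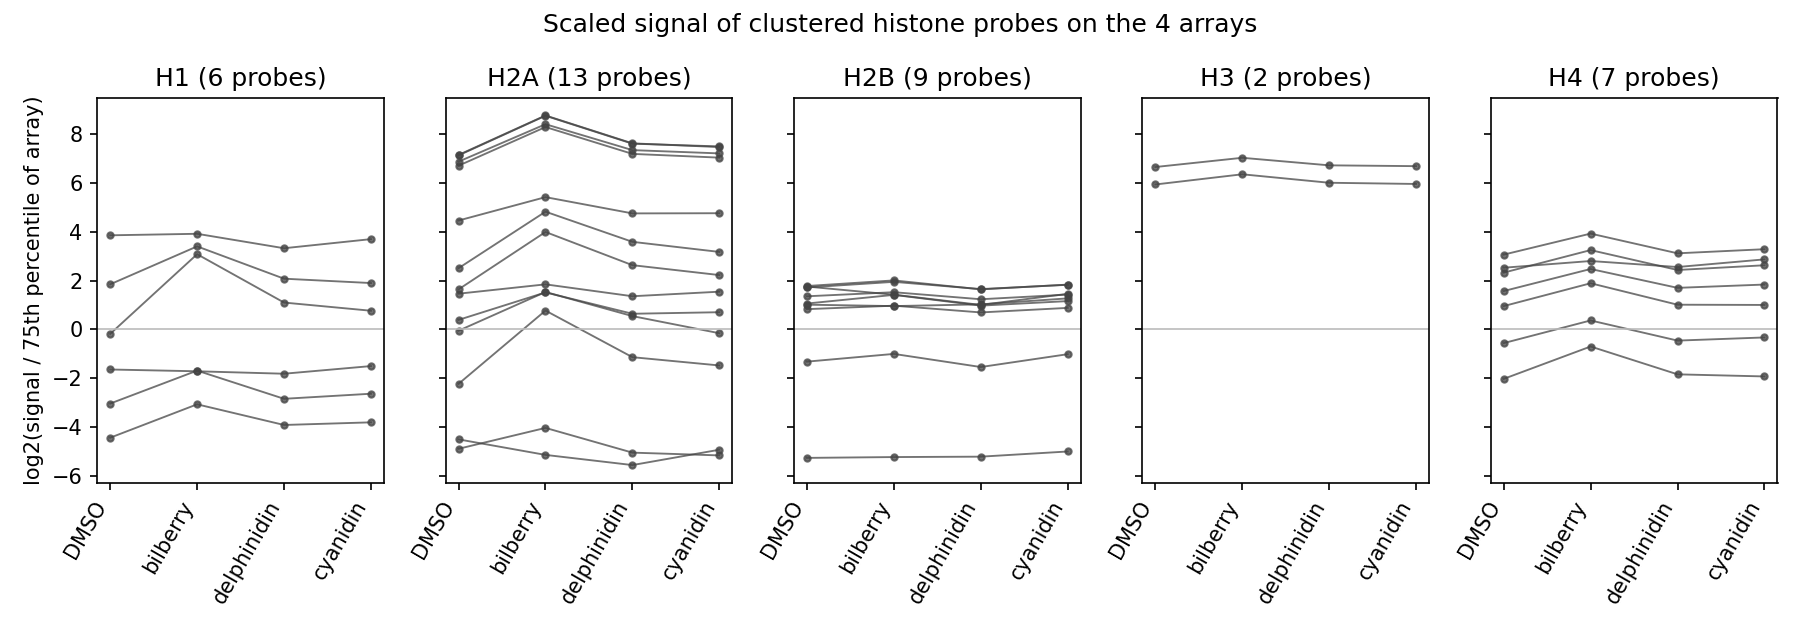
Log2 of the signal over the array's 75th percentile for each of the 37 histone probes on the 4 arrays (lines join a probe's values), by type. Levels are to be compared along a line, not between probes, and most H1, H2A and H4 lines peak on the bilberry array while the H2B lines are nearly level on this scale.

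Larger ratios were seen at 3 other H2A probes. Hist1h2ab had levels of -2.23, 0.77, -1.14 and -1.48, with ratios of 8.0-fold with bilberry extracts, 2.13-fold with delphinidin and 1.68-fold with cyanidin, and it was the other histone probe more than 2-fold higher with bilberry extracts on the spike-in scale. Hist1h2ai had levels of 1.64, 3.99, 2.63 and 2.22, or ratios of 5.09-fold, 1.99-fold and 1.5-fold. Hist1h2ak had levels of 2.51, 4.82, 3.58 and 3.17, or ratios of 4.97-fold, 2.11-fold and 1.59-fold. Hist1h1b, Hist1h2ab and Hist1h2ak were thus the 3 histone probes more than 2-fold higher with delphinidin, of which Hist1h2ab was not under normexp (0.90). In Hist1h1b, Hist1h2ab, Hist1h2ai and Hist1h2ak alike, the level fell in the order bilberry extracts, delphinidin, cyanidin and DMSO on this scale.

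Values of 3 further H2A probes follow. Hist2h2aa1 had levels of 0.39, 1.51, 0.64 and 0.70 and a bilberry log2 ratio of 1.12, which was -0.42 on the spike-in scale. Hist1h2ae was dim, at -4.89, -4.03, -5.05 and -5.16, with log2 ratios of 0.85, -0.16 and -0.27. The second Hist1h2af probe, A_52_P498210, had a ratio for cyanidin only, at 0.77, above the cyanidin ratios of the other H2A probes.

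Probes of Hist3h2a and Hist2h2aa2 did not move together. Of the Hist3h2a probes, A_51_P441377, placed in the files on the strand opposite to the other Hist3h2a probes, had levels of -0.05, 1.53, 0.54 and -0.16 and a bilberry log2 ratio of 1.58. A_52_P184352 had levels of 4.46, 5.41, 4.75 and 4.76 and a ratio of 0.96, and A_52_P615375 had levels of 1.46, 1.84, 1.36 and 1.54 and a ratio of 0.38. A_52_P617924 was well above background with bilberry extracts only, at least 1.87-fold higher than with DMSO. The Hist2h2aa2 probe A_52_P571832 had levels of -4.50, -5.14, -5.55 and -4.93. Its log2 ratio of -1.05 made it the only histone probe more than 2-fold lower with delphinidin, a call lost on the spike-in scale and under normexp background correction and quantile normalization. The other Hist2h2aa2 probe, A_52_P367755, was not well above background with bilberry extracts and was at least 1.03-fold lower there.

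H2B is the partner of H2A, and none of its probes passed 2-fold in any treatment after 75th percentile scaling. Of all probes 4.17% were more than 2-fold higher and 6.94% lower with bilberry extracts, 1.04% and 1.35% with delphinidin and 0.49% and 1.81% with cyanidin. The 9 H2B probes had bilberry log2 ratios between -0.33 and 0.35, delphinidin ratios between -0.75 and 0.05 and cyanidin ratios between -0.30 and 0.31. Hist1h2bm had levels of 1.77, 2.00, 1.64 and 1.83, Hist1h2bk (A_52_P388224) had 1.72, 1.95, 1.65 and 1.83, and Hist2h2bb had 1.75, 1.42, 1.00 and 1.46. Hist2h2bb was the lowest of the 9 in each treatment. Hist1h2ba, known from testis, had levels of 1.35, 1.52, 1.23 and 1.42 and log2 ratios of 0.17, -0.12 and 0.07. Hist1h2be was not well above background with bilberry extracts and was at least 1.17-fold lower there. On the spike-in scale all 9 H2B probes were more than 2-fold lower with bilberry extracts, between -1.87 and -1.19, against 79.0% of all probes. Under the normexp fit over all spots 7 of the 9 were below 0 and Hist1h2bp, at 0.03 after 75th percentile scaling, was at 2.27, while under its refit the 9 lay between -0.38 and 0.44.

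H3, which carries many of the known histone marks, was read by 2 probes, each listed with 4 RefSeq transcripts. Hist2h3c1 had levels of 6.65, 7.02, 6.72 and 6.68 and Hist1h3d had 5.93, 6.35, 6.00 and 5.95. Their bilberry log2 ratios were 0.38 and 0.42, and with delphinidin and cyanidin they lay between 0.02 and 0.07. The bilberry direction turned on the spike-in scale, where both were more than 2-fold lower (-1.16 and -1.12). On that scale 79.0% of all probes were lower, with a median of -1.40. The direction also turned under the normexp fit over all spots (-0.26 and -0.25), but not under its refit (0.33 and 0.34).

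H4, the partner of H3, lay between. Hist1h4f had levels of 3.06, 3.92, 3.11 and 3.28, and the Hist1h4d probe A_51_P136097 had 2.32, 3.25, 2.43 and 2.62. These probes, with Hist1h4a, Hist2h4 and Hist4h4 (A_52_P299703), had bilberry log2 ratios between 0.86 and 0.94, just under 2-fold. The other Hist1h4d probe, A_51_P482070, had levels of -2.03, -0.70, -1.84 and -1.93 and a ratio of 1.33, the only H4 probe past 2-fold, and -0.22 on the spike-in scale. Hist1h4i had levels of 2.52, 2.80, 2.55 and 2.87, with a bilberry ratio of 0.27. With delphinidin the 7 probes lay between 0.03 and 0.19 and with cyanidin between 0.05 and 0.34.

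The bilberry count was also taken over probes listed with few transcripts and at a stricter threshold. Of 24 probes for which the files list 1 RefSeq transcript or none, 10 were more than 2-fold higher with bilberry extracts and their median log2 ratio was 0.92. Of the 13 with several transcripts 4 were higher, with a median of 0.86, where 4.17% of all probes were higher. On the spike-in scale 2 of these 37 probes, Hist1h1b and Hist1h2ab, were higher, against 0.103% of all probes. At a threshold of 3-fold 6 of the 37 probes were higher, against 0.616% of all probes. The software's own error of a log2 ratio was between 0.20 and 0.36 for the 37 probes and covers a single array's signal only.

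**Figure D4:**
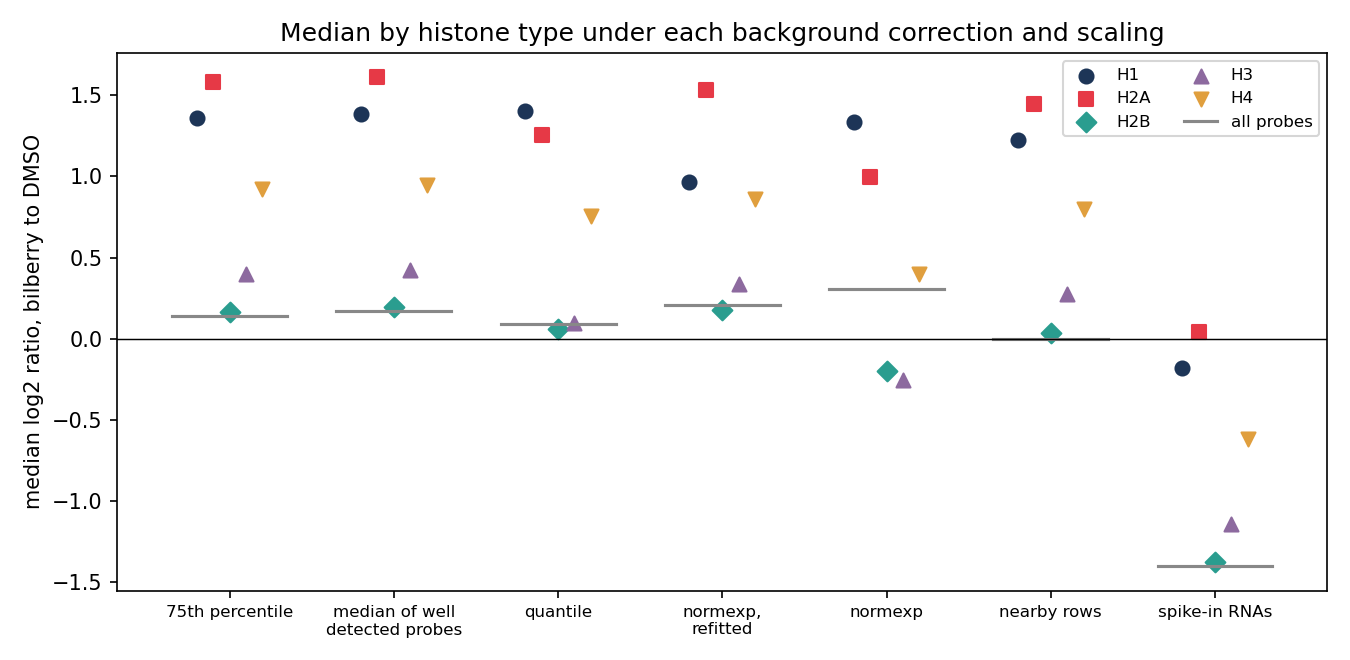
Median bilberry log2 ratio of each histone type (symbols) and of all probes (grey bars) under 7 background corrections and scalings. H1 and H2A are the 2 highest medians in each, H2B and H3 the 2 lowest, and on the spike-in scale only the H2A median, 0.04, is above 0.

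Delphinidin and cyanidin are anthocyanidins that differ by an additional hydroxyl group on the B ring of delphinidin, and they were given at the same dose and for the same time. Of the 37 histone probes, 0 differed by more than 2-fold between them, against 0.802% of all probes. The median log2 ratio of delphinidin to cyanidin was -0.13 and the range was -0.63 to 0.70, where the median of all probes was -0.02. All 9 H2B probes were lower with delphinidin, between -0.53 and -0.18, and 9 of 13 H2A probes were higher, with a median of 0.13. The lowest value was that of Hist2h2aa2 (A_52_P571832) and the highest that of Hist3h2a (A_51_P441377). With 1 array for each compound no test or interval of these differences could be made, and this was the only pair of compounds compared.

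Histone variants outside the clusters, most of which are made throughout the cell cycle and carry poly(A) tails, were read for 10 genes well above background on all 4 arrays. With bilberry extracts 3 of 10 were more than 2-fold higher and 1 lower, against 4.17% and 6.94% of all probes, with a median log2 ratio of 0.25, and 0 passed 2-fold with delphinidin or cyanidin, with medians of 0.00 and 0.05. H2afx, which marks DNA breaks when phosphorylated, had levels of 4.28, 5.47, 4.71 and 4.67, or a bilberry ratio of 1.19. H2afj and the linker variant H1fx had bilberry ratios of 1.33 and 1.24, while H1f0, a linker histone of non-dividing cells, had levels of 1.22, -0.03, 0.73 and 0.59 and a ratio of -1.25. H2afz had ratios of 0.64, 0.34 and 0.19 with bilberry extracts, delphinidin and cyanidin, H3f3a had -0.25, -0.30 and -0.34, and H3f3b had 0.51, 0.15 and 0.04. On the spike-in scale 0 of the 10 were more than 2-fold higher with bilberry extracts and 6 were lower, against 0.103% and 79.0% of all probes. The median there was -1.29, and H2afx, H2afj and H1fx were at -0.35, -0.21 and -0.30. The 3 were below 2-fold under quantile normalization and the normexp fit over all spots, where the median was -0.08, and past it under the refit, where the median was 0.26.

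The machinery that makes and ends histone mRNA was read for 2 lists of 14 genes each, with bilberry medians of 0.37 for mRNA 3′ processing and decay and 0.07 for transcription and its cell cycle control. Slbp, which encodes stem-loop binding protein, had levels of 3.09, 3.63, 3.65 and 3.41, or ratios of 0.54, 0.56 and 0.31. Beside the counts that follow, 4.17% of all probes were more than 2-fold higher and 6.94% lower with bilberry extracts, and 1.04% were higher with delphinidin. Of the 14 processing genes 0 were more than 2-fold higher in any treatment, and Casp8ap2 (-1.74) and Zcchc11 (-1.16) were lower with bilberry extracts. Npat, the coactivator of histone transcription, had ratios of -0.22, 0.24 and -0.13. Of the 14 transcription genes, Ccne1 (1.34), E2f1 (1.24) and Cdc25a (1.16) were more than 2-fold higher and Casp8ap2, in both lists, was lower with bilberry extracts, and Ccne2 (1.07) was higher with delphinidin. Of 15 histone chaperone genes, Chaf1b (1.33), Rbbp4 (1.1), Chaf1a (1.08) and Asf1b (1.01) were higher with bilberry extracts, and Chaf1b (1.04) and Chaf1a (1.00) with delphinidin. The bilberry count was 1 of 15 under quantile normalization, 1 less the median of nearby array rows and 3 under the normexp refit. Under the normexp fit over all spots these 4 genes were at 0.84, 0.52, 0.57 and 0.44. There 1 of the 15, Ipo4 (1.75), was higher, against 31.5% of all probes. Atrx, of the same list, was not well above background with bilberry extracts and was at least 5.48-fold lower there, and likewise the variant H2afy2 was at least 1.33-fold lower. On the spike-in scale 12 of the 14 processing genes, 9 of the 14 transcription genes and 10 of the 15 chaperone genes were more than 2-fold lower with bilberry extracts and 0 were higher, against 79.0% lower and 0.103% higher among all probes, and the medians were -1.17, -1.47 and -1.25. Under the normexp fit over all spots the processing, transcription and chaperone medians were -0.11, 0.42 and -0.18, and neither Casp8ap2 nor Zcchc11 was more than 2-fold lower. Under its refit the medians were 0.32, 0.09 and 0.22 and both genes were lower (-1.44 and -1.08), as were 3.33% of all probes.

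S phase genes, which copy DNA and make its building blocks, had their largest median ratios with bilberry extracts and delphinidin after 75th percentile scaling. Of 29 such genes 14 were more than 2-fold higher with bilberry extracts, 12 with delphinidin and 1 with cyanidin, against 4.17%, 1.04% and 0.49% of all probes, and 0 were lower. Their median log2 ratios were 0.98, 0.95 and 0.57, beside 0.90, 0.07 and 0.23 for the histone probes. Pcna, the sliding clamp of DNA polymerase, had levels of 4.82, 5.91, 5.95 and 5.52, or ratios of 1.09, 1.13 and 0.70. Rrm2, a subunit of ribonucleotide reductase, had levels of 0.91, 2.56, 2.42 and 2.01, or ratios of 1.66, 1.51 and 1.11. The other genes past 2-fold with bilberry extracts were Mcm5 (1.70), Mcm2 (1.38), Cdc6 (1.37), Mcm3 (1.33), Tk1 (1.32), Fen1 (1.26), Mcm6 (1.20), Rfc5 (1.17), Mcm7 (1.16), Cdc45 (1.15), Ung (1.05) and Pole (1.03). Those with delphinidin included Mcm5 (1.31), Tk1 (1.21), Cdc6 (1.21), Mcm3 (1.20), Pole (1.15), Fen1 (1.08), Mcm6 (1.04), Cdc45 (1.04) and Tyms (1.00). All 14 bilberry calls were lost on the spike-in scale, where Mcm5 had the largest ratio (0.16) and the median was -0.56. On that scale 5 genes were more than 2-fold lower with bilberry extracts, against 79.0% of all probes. There 25 were higher with delphinidin and 6 with cyanidin, against 2.38% and 1.21% of all probes. With bilberry extracts 4 of the 29 genes were more than 2-fold higher under the normexp fit over all spots, 12 under its refit and 9 under quantile normalization, against 31.5%, 1.98% and 4.35% of all probes. The 3 treatments share the DMSO array, so an error of that array enters all of these ratios.

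**Figure D5:**
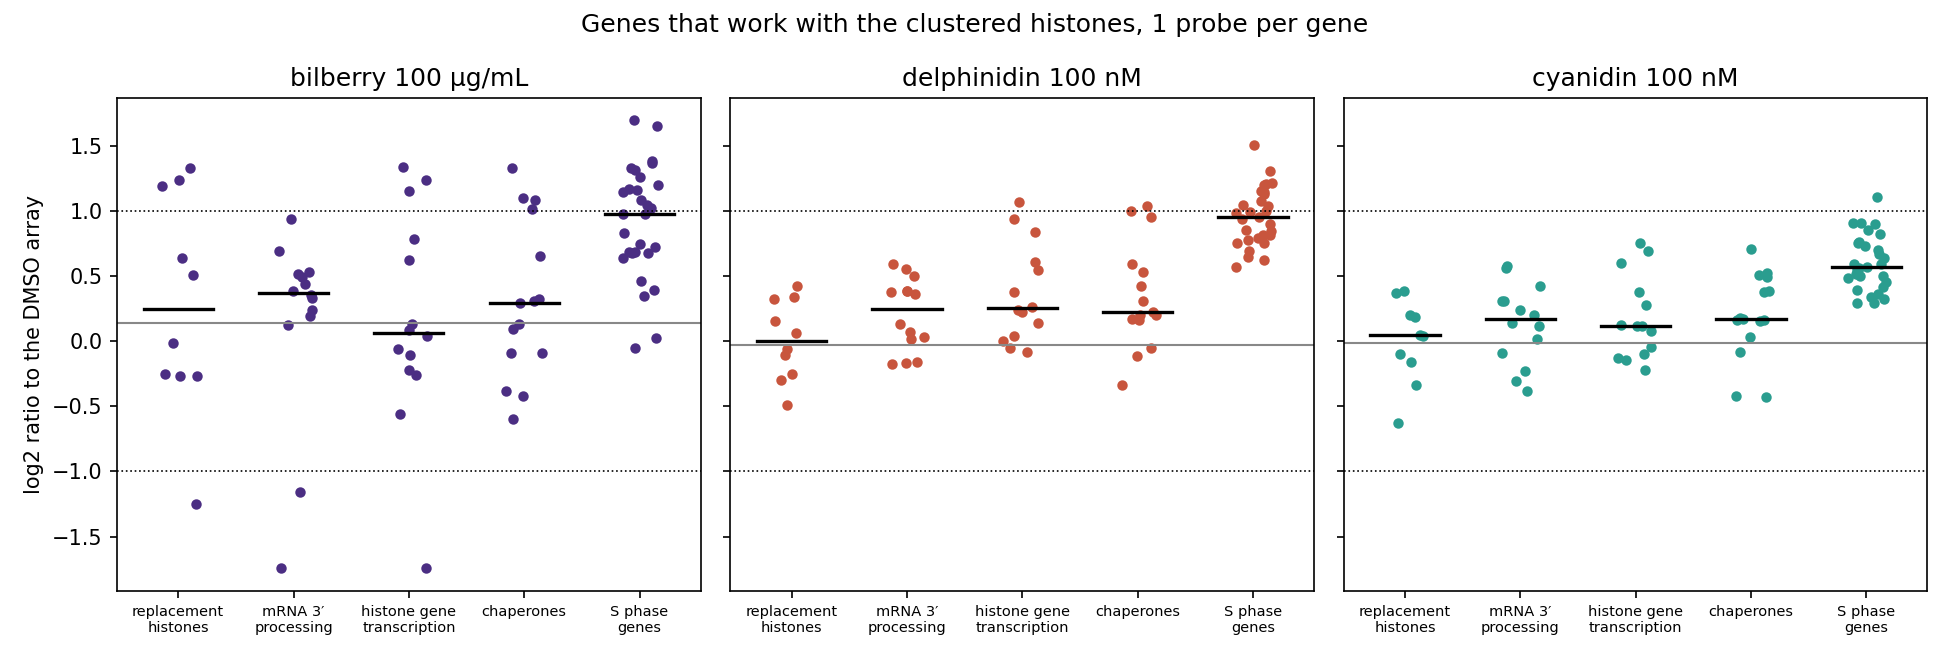
Log2 ratio to the DMSO array of genes of 5 related lists, 1 probe per gene well above background on all 4 arrays (points), with list medians (black bars), the median of all probes (grey line) and the 2-fold lines (dotted), after 75th percentile scaling. The S phase medians are 0.98, 0.95 and 0.57 with bilberry extracts, delphinidin and cyanidin, above those of the other 4 lists, and each bilberry point is lower by 1.54 on the spike-in scale.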

How the data were processed

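Total RNA of 3T3-L1 cells was labeled by the authors with 1 dye, by priming from poly(A) tails, and hybridized to Agilent Whole Mouse Genome arrays. There was 1 array per condition. The authors deposited the output of Agilent Feature Extraction for each array, whose processed signal is an intensity with the local background subtracted. A deposited table of the series held the same intensities. Probe positions are those of the files, on mm8, and RefSeq (GRCm38.p6) gave current symbols for 36 of 47 probes.

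Following the methods of the study, signals were scaled to the 75th percentile over the 43379 non-control spots of the array and taken to log2. That percentile was 861 with DMSO, 576 with bilberry extracts, 1009 with delphinidin and 1016 with cyanidin. Control spots and spots marked by the software were left out, and spots of a probe were averaged. The SD of replicate spots was 0.030 to 0.037 log2 as a median over 140 probes. The number of arrays limits the precision. Ratios were counted for probes well above background on all 4 arrays. A probe not well above background on an array has only a bound there, set by the higher of its own signal and the dimmest signal that passed the call on that array.

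The members, the 8 gene lists and the alternatives were chosen with earlier results of these data known. Named with values were the 3 brightest probes of each type with DMSO, up to 10 probes past 2-fold per treatment, probes of a gene that differed by over 1 log2 unit, testis members and list genes past 2-fold, with Slbp, Npat, Pcna, H2afx, H2afz, H3f3a, H3f3b and H1f0. Other listed histone probes were named beside these. Alternatives were normexp (offset 50) and its refit without marked backgrounds, quantile, median, spike-in and nearby-row scaling, marked spots kept, the deposited table, other detection filters, the brightest probe of each gene and thresholds of 1.5 and 3. The restriction to probes with no more than 1 RefSeq transcript and the alternatives for the related lists were chosen after seeing the data. The calculations were tested on simulated data, with Python 3.11.15, numpy 2.4.6, pandas 2.3.3, matplotlib 3.10.9, R 4.3.3 and limma 3.58.1.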

Additional observations from a re-analysis of the deposited data

How the results depend on the processing

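No paired analysis was possible because there was 1 array per condition, which also left no replicate to leave out. On the spike-in scale 2 of the 37 histone probes were more than 2-fold higher and 16 lower with bilberry extracts, 0 lower with delphinidin and 1 higher with cyanidin, and the median log2 ratios were -0.64, 0.33 and 0.47. Of all probes there, 0.103% were higher and 79.0% lower with bilberry extracts, 2.38% and 0.658% with delphinidin and 1.21% and 0.793% with cyanidin. On that scale the bilberry medians of H1, H2B, H3 and H4 were -0.18, -1.37, -1.14 and -0.62, the delphinidin median of H2B was 0.14, and the bilberry ratios of Hist1h1a, Hist1h1d (A_52_P10683), Hist2h2aa1, Hist2h2ac (A_52_P340480) and Hist1h4d (A_51_P482070) were -0.17, -0.19, -0.42, -0.01 and -0.22. Of all probes past 2-fold, 37.5% were higher with bilberry extracts, 43.6% with delphinidin and 21.3% with cyanidin, and 0.13%, 78.3% and 60.5% on the spike-in scale. That share was 89.9% with bilberry extracts under normexp and 22.8% less the median of nearby rows, and 55.9% with delphinidin and 38.6% with cyanidin under quantile normalization.

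The histone bilberry median was 0.71 under normexp, 0.85 under its refit, 0.75 under quantile normalization and 0.74 less the median of nearby rows. Under normexp the bilberry medians of H2A, H4, H2B and H3 were 0.99, 0.40, -0.20 and -0.26, and the H1 median was 0.96 under its refit. Of the 14 probes higher with bilberry extracts, 8 were also higher under normexp, where 31.5% of all probes were, which added Hist1h2ae, Hist1h2bp and Hist2h2aa2 (A_52_P571832) and lost Hist1h1e (0.98), Hist1h2aa, Hist1h2af, Hist2h2aa1 (0.78) and both Hist2h2ac probes, and 13 were higher under the refit, against 1.98% of all probes, which lost Hist1h1a (0.87). Hist2h2aa2 (A_52_P571832), at -0.64, was at 2.03 under normexp and 0.14 under the refit. Hist1h2ab was lost with delphinidin under both. The 1 lower probe with delphinidin became 0 under normexp, its refit and quantile normalization. Under both normexp fits the cyanidin median was 0.16 and that of delphinidin over cyanidin was -0.063. At 1.5-fold 21 probes were higher and 1 lower with bilberry extracts, against 18.2% and 14.8% of all probes, 5 were higher and 2 lower with delphinidin, against 3.91% and 5.95%, and 4 were higher with cyanidin, against 2.86%. At 3-fold 6 were higher with bilberry extracts, against 0.616%, and 0 higher and 0 lower with delphinidin, against 0.229% and 0.308%. With probes well above background on at least 1 array, or all probes, 1 was lower with bilberry extracts, Hist2h2aa2 (A_52_P367755). It was not well above background there and its bound is 1.03-fold lower, so it gives no 2-fold call. These filters also added probes to the higher side, such as Hist1h1t and Hist3h2a (A_52_P617924), which were not well above background with DMSO. Shares of all probes were not taken under these filters. Marked spots kept, the deposited table and median scaling moved none of 180 values by more than 1.5 times, for counts, or the tolerance of 0.053 taken from replicate spots, for ratios. Bilberry medians of the variant, processing, transcription, chaperone, S phase and adipocyte lists were -1.29, -1.17, -1.47, -1.25, -0.56 and -1.24 on the spike-in scale. Under normexp the variant, processing, chaperone and adipocyte medians were -0.081, -0.11, -0.18 and -0.33, the adipocyte median was -0.033 under quantile normalization, and the transcription median was -0.056 less the median of nearby rows. Normexp here is the fit over all spots, whose bilberry background was -344.9 and became -5.65 in the refit, under which those 4 medians were 0.26, 0.32, 0.22 and 0.25. The transcription and S phase medians were 0.42 and 0.52 under normexp and 0.09 and 0.93 under the refit. The cause of the other shifts was not tested.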
